A study of Homo sapiens with 24 samples.

Results

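The 10 genes followed here encode chaperones, protein disulfide isomerases and stress response factors of the endoplasmic reticulum, and were taken by symbol from a fixed list. They are HSPA5 (ENSG00000044574), HSP90B1 (ENSG00000166598), DNAJB9 (ENSG00000128590), SDF2L1 (ENSG00000128228), PDIA4 (ENSG00000155660), PDIA6 (ENSG00000143870), CALR (ENSG00000179218), CANX (ENSG00000127022), XBP1 (ENSG00000100219) and HERPUD1 (ENSG00000051108). All 10 were found among the 12285 genes of the deposited table, and all 10 averaged at least 1 FPKM (a read abundance scaled for transcript length and library size). The material was K562, a suspension line from a human chronic myeloid leukaemia with erythroid features, grown in RPMI with 10% bovine calf serum and P/S. Cells were synchronized by centrifugal elutriation, which separates cells by size, and total RNA was sequenced every 2 h from 0 h to 46 h. Each of the 24 time points was 1 library, so no group had replicates and each hour below is a single measurement.

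The endoplasmic reticulum folds secreted and membrane proteins. HSPA5 (BiP), an HSP70 chaperone, binds unfolded chains there and also holds the stress sensors IRE1, PERK and ATF6 inactive. When unfolded protein accumulates, the sensors start the unfolded protein response: IRE1 splices XBP1 mRNA, ATF6 is cut to a transcription factor, and PERK slows translation while favouring that of ATF4. Spliced XBP1 and ATF6 are known to raise transcription of the chaperone genes, and ATF6 does so with NF-Y at a promoter element called ERSE.

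Because this element ties several of these genes together, the promoter stretches that hold it are shown first. In RefSeq promoter windows of 300 bases (250 before to 50 after each transcript start, GRCh38.p14), both strands were searched for ERSE, CCAAT followed after any 9 bases by CCACG, and for ERSE-II, ATTGG followed after any 1 base by CCACG. All 10 genes had at least 1 window. ERSE was present in 6 of the 10 (HSPA5, HSP90B1, PDIA6, XBP1, CALR and CANX), against 25 of 27305 genes overall (0.0916%). ERSE-II was present in SDF2L1 and HERPUD1, against 19 genes overall (0.0696%). Each line gives the coding-strand sequence 5′ to 3′, with the 2 arms of each match in capitals; where the arms read CGTGG and ATTGG (ERSE), or CGTGG and CCAAT (ERSE-II), the element lies on the opposite strand.
HSPA5, chr9:125241376-125241424, minus strand: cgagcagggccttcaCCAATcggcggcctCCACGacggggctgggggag
HSP90B1, chr12:103930201-103930354, plus strand: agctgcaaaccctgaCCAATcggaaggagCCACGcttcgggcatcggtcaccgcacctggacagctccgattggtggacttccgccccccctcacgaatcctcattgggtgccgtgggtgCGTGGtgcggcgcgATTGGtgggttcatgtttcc
PDIA6, chr2:10812848-10812876, minus strand: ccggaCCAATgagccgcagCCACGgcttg
XBP1, chr22:28800588-28800636, minus strand: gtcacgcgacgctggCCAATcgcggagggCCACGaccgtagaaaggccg
CALR, chr19:12938369-12938417, plus strand: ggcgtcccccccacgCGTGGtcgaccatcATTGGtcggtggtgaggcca
CANX, chr5:179698773-179698801, plus strand: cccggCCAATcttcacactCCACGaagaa
SDF2L1, chr22:21642099-21642139, plus strand: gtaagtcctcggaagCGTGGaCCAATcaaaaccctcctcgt
HERPUD1, chr16:56932010-56932050, plus strand: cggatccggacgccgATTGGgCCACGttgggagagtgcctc

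HSP90B1 held ERSE 2 times, once on each strand. With at most 1 mismatch allowed in CCACG, ERSE was also found in SDF2L1, where it overlaps ERSE-II, and in HERPUD1, giving 8 of the 10 genes against 1.28% of all genes. The CCAAT arm alone was present in all 10 genes and in 39.7% of all genes. The UPRE letters TGACGTGG were in 0 of the 10 and in 0.927% of all genes. PDIA4 and DNAJB9 held neither ERSE nor ERSE-II in these windows. A match is a description of letters, and binding was not measured here. The 10 were listed as genes of this response, for which these elements are known, so the counts are no independent result.

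The libraries were not alike. The summed FPKM was 566247 at 16 h and 591309 at 18 h, the time points that the study named as STRIPEs (time points at which transcript levels depart from their neighbours across the transcriptome), and at most 520382 elsewhere. For the day difference, the 24 h order and the likeness between genes, the main counts or medians are also given without these hours. All 14 erythroid markers were in the table, with a sum of 4054 to 9264 FPKM per time point, whereas 2 of 10 fibroblast markers (sum 4.59 to 10.9 FPKM) and 2 of 10 lymphoid markers (sum 4.81 to 14.1 FPKM) were. Read depth is unknown, so the counting error of a single value cannot be given.

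By mean level over the 24 time points, CALR was highest at 540.5 FPKM, rank 95 of 12285 genes, followed by CANX at 495 FPKM, HSP90B1 at 354 FPKM, SDF2L1 at 216 FPKM, PDIA6 at 164 FPKM, HSPA5 at 117 FPKM, PDIA4 at 88.4 FPKM, XBP1 at 60.2 FPKM, HERPUD1 at 27.1 FPKM and DNAJB9 at 8.92 FPKM. The lectin chaperones thus stood at the top, and XBP1, HERPUD1 and the co-chaperone DNAJB9 at the bottom. For 8 of the 9 neighbouring pairs in this order the ranges over time overlapped, and for HERPUD1 and DNAJB9 they did not (lowest and highest value 12.5 and 12.3 FPKM). Within the same library the order was steadier. HSP90B1 was above SDF2L1, HSPA5 above PDIA4, XBP1 above HERPUD1 and HERPUD1 above DNAJB9 at all 24 time points. The order was least steady for CALR and CANX, with CALR higher at 19 of 24.

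HSPA5 was highest at 0 h with 194 FPKM and 166 FPKM at 2 h, and lowest at 6 h with 89.2 FPKM, around a median of 112 FPKM. After 91.1 FPKM at 4 h it was 130.2 FPKM at 12 h, and on the second day it reached 139.7 FPKM at 34 h. Its 0 h value was 2.01-fold that at 24 h (96.6 FPKM), so the high start did not recur 24 h later. DNAJB9, an HSP40 co-chaperone that delivers clients to BiP and restrains IRE1, was likewise high at the start: 12.3 FPKM at 0 h, its highest, and 6.01 FPKM at 4 h, its lowest, with a median of 8.65 FPKM. SDF2L1, a partner of the BiP and HSP40 complex, ranged from 95.6 FPKM at 18 h to 292 FPKM at 14 h, with a median of 230.0 FPKM. Its low values lay at 16 h (111 FPKM), 18 h and 22 h (133 FPKM), while 20 h between them was at 236 FPKM.

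HSP90B1 (GRP94), the HSP90 of the endoplasmic reticulum, ranged from 254 FPKM at 6 h to 564 FPKM at 18 h, with a median of 334 FPKM. Outside 16 h and 18 h its highest value was 441 FPKM, at 0 h, and its highest on the second day was 400.3 FPKM, at 36 h. The 2 protein disulfide isomerases, which form and rearrange disulfide bonds, had the smallest SDs over time of the 10. PDIA6 lay between 140.3 FPKM at 46 h and 216 FPKM at 16 h, and PDIA4 between 60.5 FPKM at 18 h and 99.9 FPKM at 14 h. They went opposite ways at 16 h and 18 h, PDIA6 to its highest values and PDIA4 to its lowest.

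CALR and CANX are lectin chaperones that hold glycoproteins until they are folded. CALR was highest at 16 h with 919 FPKM and at 18 h with 864 FPKM, and lowest at 46 h with 379 FPKM. Its next highest value was 680.0 FPKM at 32 h, which the study described as a mild STRIPE. CANX was highest at 18 h with 677 FPKM and at 16 h with 666 FPKM, and lowest at 4 h with 411 FPKM.

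XBP1, the transcription factor activated by IRE1, was highest at 0 h with 78.7 FPKM and at 46 h with 75.1 FPKM, and lowest at 4 h with 39.9 FPKM. The gene-level value does not separate its spliced from its unspliced mRNA. HERPUD1, a membrane protein of the machinery that degrades misfolded proteins (ERAD), had the widest range as a fold (4.83-fold between highest and lowest without 16 h and 18 h): 52.9 FPKM at 0 h, 22.8 FPKM at 2 h, 12.5 FPKM at 4 h and 23.7 FPKM at 6 h. It then stayed between 19.2 and 29.2 FPKM up to 42 h, and was at 46.5 FPKM at 44 h and 60.5 FPKM at 46 h. Over the 22 time points left without 16 h and 18 h the SD of log2(FPKM + 1) was 0.47 for HERPUD1, higher than in 96.7% of genes, and 0.07 for PDIA6, higher than in 0.947% of genes. The median over the 10 genes was 0.20, against 0.18 over all genes.

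**Figure D1:**
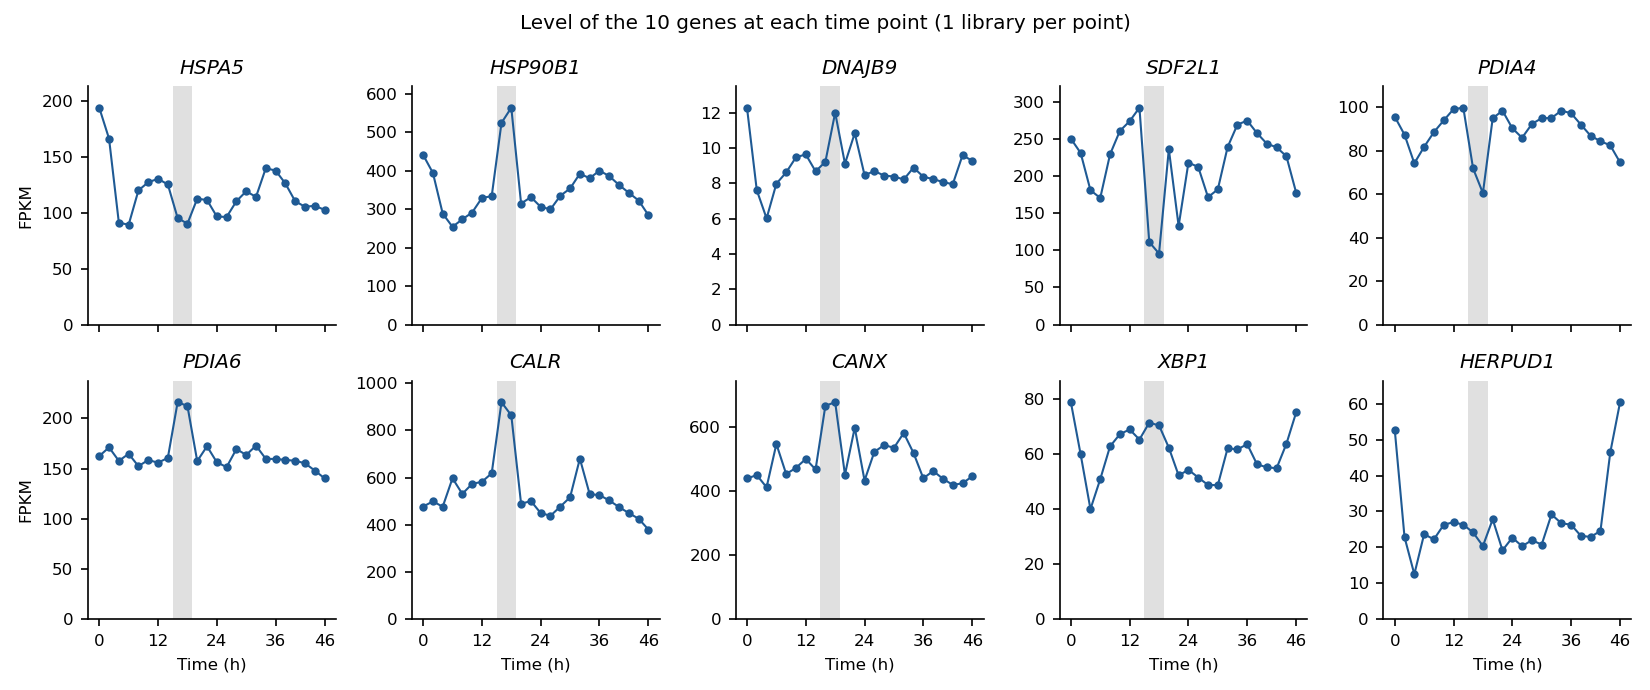
FPKM (vertical axes, from 0, scaled per gene) against time in h for each of the 10 genes, 1 library per point, with 16 h and 18 h shaded. HSPA5, DNAJB9, XBP1 and HERPUD1 start high and are low at 4 h, HERPUD1 is high again at 44 h and 46 h, and SDF2L1 and PDIA4 dip where CALR, CANX, HSP90B1 and PDIA6 peak.

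In the opening hours all 10 genes were lower at 4 h than at 0 h, though CANX, PDIA6 and CALR were nearly level. The median difference was −0.54 in log2(FPKM + 1) against −0.02 over the 12253 genes that averaged at least 1 FPKM. Of the 8992 measured genes with a promoter window, 52.9% were lower at 4 h. This contrast was chosen after the values were seen, it compares 2 libraries, and no test applies. HERPUD1 was 4.22-fold lower in FPKM, a log2 difference of −1.99 that ranked 23 among all genes, and HSPA5 was 2.13-fold lower, at −1.08. These 2 genes were at least 2-fold lower on the log2(FPKM + 1) scale, as were 1.41% of all genes. XBP1 at −0.96 and DNAJB9 at −0.92 were just short of it on this scale, which understates changes of low genes: in FPKM, DNAJB9 was 2.04-fold lower, and with a pseudocount of 0.1 the count was 3. HSP90B1 differed by −0.61, SDF2L1 by −0.47 and PDIA4 by −0.36, whereas CANX (−0.09), PDIA6 (−0.04) and CALR (−0.0016) were nearly level. Of 8992 measured genes matched by symbol to a promoter window, 15 held ERSE, with a median of −0.12 against −0.02 over the 8992. The 9 of them outside the set had a median of −0.12, and 0 of the 9 were 2-fold lower. Of all 15, only HSPA5 was 2-fold lower, as were 0.99% of the 8992. With 2 h in place of 0 h, 0 of the 10 were 2-fold lower, against 0.482% of all genes. With 6 h in place of 4 h both HSPA5 and HERPUD1 still were, against 2.23% of all genes. From 4 h to the mean of 10 h, 12 h and 14 h, 0 of the 10 were lower, though PDIA6 was nearly level at 0.0059. The median difference was 0.44 against 0.01 over all genes.

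At the end of the course HERPUD1 stood apart. The mean of 44 h and 46 h exceeded that of 40 h and 42 h by 1.13 in log2(FPKM + 1), rank 16 of 12253, and 0.212% of all genes were at least 2-fold higher in this contrast. From 42 h to 46 h its FPKM was 2.46-fold higher. XBP1 differed by 0.33, DNAJB9 by 0.21 and CANX by 0.02. The other 6 genes were lower, from −0.05 for HSPA5 to −0.26 for SDF2L1. Without 46 h, HERPUD1 was short of 2-fold and 0 of the 10 genes reached it, against 17 genes in all. This contrast too was chosen after the values were seen and carries no test. In RNA from a bulk culture, a change in the share of cells and a change in RNA per cell cannot be told apart.

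Beside these stood a list of 7 genes of the PERK and ATF4 arm. All 7 were lower at 4 h than at 0 h, with a median of −0.92, and all 7 were higher at the end, with a median of 0.58. Over all genes these medians were −0.02 and 0.0026. ATF4, the transcription factor whose translation PERK favours, was at 147 FPKM at 0 h, 77.1 FPKM at 4 h, 92.8 FPKM at 42 h and 145 FPKM at 46 h. DDIT3 (CHOP), a pro-apoptotic target of ATF4, was at 49.1, 20.2, 19.9 and 54.9 FPKM at those hours. ATF3, DDIT3 and CHAC1 were at least 2-fold lower at 4 h and at least 2-fold higher at the end, CHAC1 with 5.04 FPKM at 42 h and 65.2 FPKM at 46 h (ATF3 and CHAC1 were named after their values were seen). HERPUD1 was the one of the 10 genes whose 4 h and end differences both exceeded 2-fold.

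The larger set of 27 other chaperones and folding enzymes of the endoplasmic reticulum differed less: the median was −0.10 at 4 h, with 21 of 27 lower and 0 by 2-fold, and −0.06 at the end. The 23 ERAD genes had medians of −0.12 and 0.03, the 24 translocon and N-glycosylation genes of 0.03 and −0.07, and the 11 sensors and regulators of 0.01 and 0.11. Among 12 cytosolic chaperones, 11 were lower at 4 h (median −0.36) and all 12 were lower at the end (median −0.27). HSPA8, the constitutive cytosolic HSP70, was at 1403 FPKM at 0 h, 1089 FPKM at 4 h, 1297 FPKM at 42 h and 742 FPKM at 46 h. HSPA1A, the heat-inducible HSP70, was at 52.4, 25.4, 57.4 and 17.03 FPKM at these hours, though its reads may be shared with the near-identical HSPA1B. At 46 h HSPA8 and HSPA1A were thus at their lowest of the course, while HERPUD1 and DDIT3 were at their highest.

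**Figure D2:**
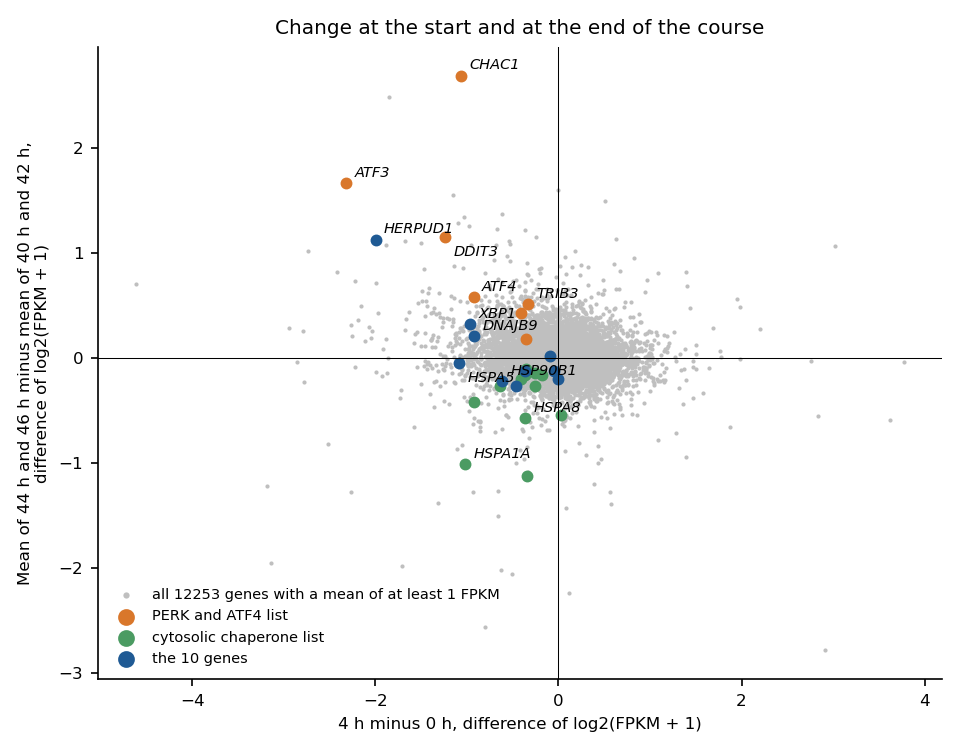
Difference in log2(FPKM + 1) between 4 h and 0 h (horizontal axis) and between the means of 44 h and 46 h and of 40 h and 42 h (vertical axis) for all 12253 genes (grey), the 10 genes (blue), the PERK and ATF4 list (orange) and the cytosolic chaperone list (green). HERPUD1, at −1.99 and 1.13, lies beside ATF3, DDIT3 and CHAC1 at the upper left, while HSPA5, at −1.08 and −0.05, lies to the left near 0.

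**Figure D3:**
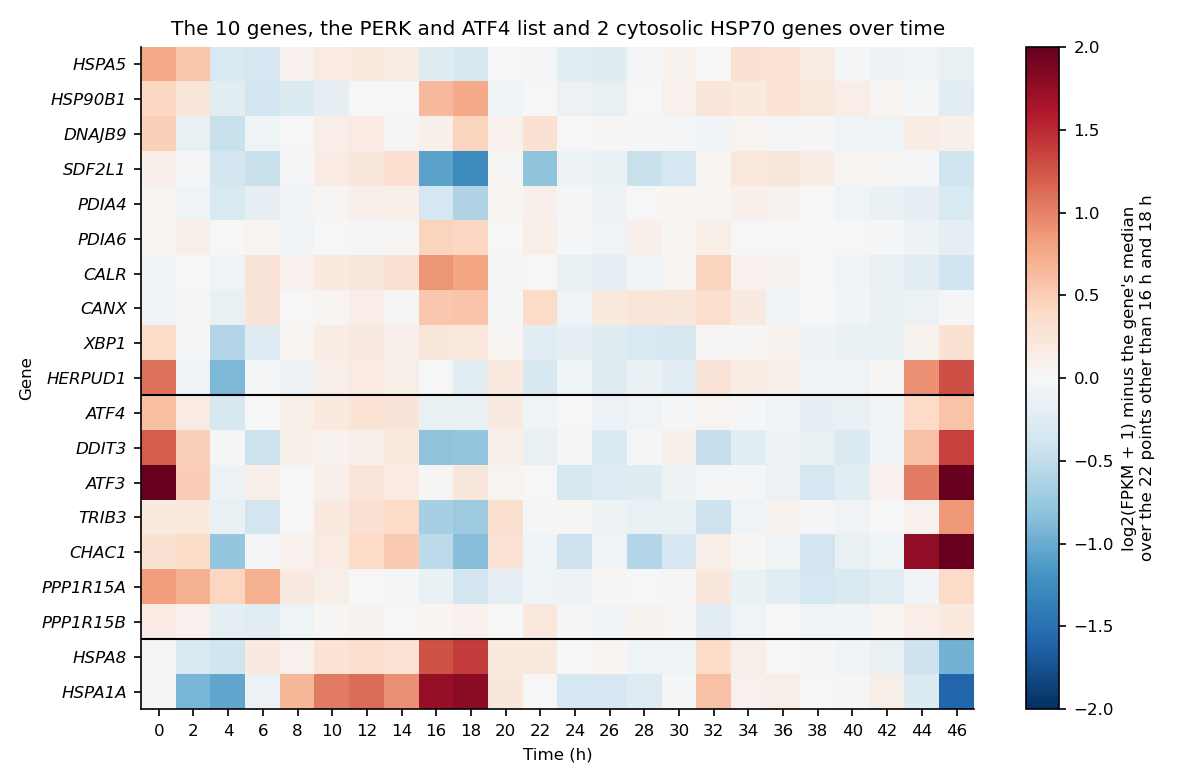
Difference of log2(FPKM + 1) from each gene's median over the 22 time points left without 16 h and 18 h (colour, limited to −2 and 2), for the 10 genes, the 7 genes of the PERK and ATF4 list, HSPA8 and HSPA1A (rows), at each time point (columns, in h). The red cells of HERPUD1, ATF4, DDIT3, ATF3 and CHAC1 at 46 h stand over the blue cells of HSPA8 and HSPA1A.

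To ask whether levels drifted between the first day (0 h to 22 h) and the second day (24 h to 46 h), matched hours were compared with limma on log2(FPKM + 1), with hour as a block. Time points stood in for replicates, so the p-values measure only the spread between the 12 pairs. Of the 10 genes, 0 were called at an adjusted p of 0.05, and 1, CALR, had an unadjusted p under 0.05. The share of all genes under that unadjusted cut was not worked out, so this count is not read further. Over all genes, 9.44% were called higher and 5.15% lower on the second day. Centring each time point on its median gave 1057 higher and 897 lower calls, against 1157 and 631. CALR was at a mean of 594 FPKM on the first day and 487 FPKM on the second, a difference of −0.26 (SE 0.10, limma adjusted p = 0.0937), and was lower in 10 of 12 pairs. The value moved with the peak at 16 h and 18 h: without these hours and their partners the CALR difference was −0.13 (limma adjusted p = 0.174). Without 6 h and 32 h and their partners as well, it was −0.18 and passed the test (limma adjusted p = 0.0298).

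For SDF2L1 the difference was 0.20 (SE 0.13, limma adjusted p = 0.320), and it was −0.0014 without 16 h, 18 h and their partners. HERPUD1 differed by 0.16 (SE 0.18, limma adjusted p = 0.560). The remaining 7 genes differed by −0.10 to 0.05, with limma adjusted p-values from 0.3003 to 0.916. Without 16 h, 18 h and their partners, 0 of the 10 were called, against 1539 higher and 862 lower of 12253 genes. HERPUD1 was then at 0.18 and the remaining 7 ran from −0.11 (HSPA5) to 0.10 (HSP90B1). HSPA5, at 121 FPKM on the first day and 114 FPKM on the second, was higher in 7 of 12 pairs and lower in 5.

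Each pathway list held at most 2 calls in either direction, where 9.44% of all genes were called higher and 5.15% lower. With lists this small, nothing particular to a list is read from them. Of the 27 chaperones and folding enzymes, 1 was higher on the second day, the disulfide isomerase PDIA5 (0.26, limma adjusted p = 0.0267), and 1 was lower, DNAJC10, a disulfide reductase that works in ERAD (−0.25, limma adjusted p = 0.0384). Of the 23 ERAD genes, DERL3 (0.32, limma adjusted p = 0.0252) and the ubiquitin-conjugating enzyme UBE2G2 (0.20, limma adjusted p = 0.0231) rose, and SELENOS fell by 0.22 (limma adjusted p = 0.0403). Of the 24 translocon and N-glycosylation genes, the signal peptidase subunit SEC11C fell by 0.36 (limma adjusted p = 0.0389) and the oligosaccharyltransferase subunit DAD1 fell by 0.13 (limma adjusted p = 0.0492). Of the 11 sensors and regulators, NFYA, a subunit of the CCAAT-binding factor NF-Y, fell by 0.37 (limma adjusted p = 0.0064). None of the 7 genes of the PERK and ATF4 arm or the 12 cytosolic chaperones was called. Without 16 h, 18 h and their partners, 7 of these 8 genes were still called in the same direction, and DNAJC10 was not (−0.18, limma adjusted p = 0.0719).

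Order in time over a 24 h cycle was measured with the JTK statistic, which asks whether values rank like a cosine of some phase. Its permutation p takes the single time points as exchangeable, so slow drift lowers it too. Of the 10 genes, 0 were called at an adjusted permutation p of 0.05, against 13% of all genes. An unadjusted permutation p under 0.05 was found for 3 (CALR, SDF2L1 and XBP1). The share of all genes under that unadjusted cut was not worked out, so this count is not read further. The adjusted permutation p was 0.0641 for CALR, with a fitted peak at 10 h, 0.0893 for SDF2L1, with a peak at 12 h, and 0.110 for XBP1. A limma F test of a 24 h cosine also called 0 of the 10, against 1125 of 12285 genes. Without 16 h and 18 h, CALR (adjusted permutation p = 0.0178) and SDF2L1 (adjusted permutation p = 0.0197) were called, with fitted peaks at 10 h and 14 h, against 16.2% of all genes. Among the lists, 4 of the 11 sensors and regulators, 2 of the 27 chaperones, 2 of the 23 ERAD genes, 1 of the 7 PERK and ATF4 genes, 1 of the 12 cytosolic chaperones and 0 of the 24 translocon genes were called. Without 16 h and 18 h these counts were 4, 5, 5, 1, 3 and 2.

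At 16 h and 18 h the 10 genes split. The mean deviation of log2(FPKM + 1) from a line drawn from 14 h to 20 h was set against the same measure at 16 other consecutive pairs, with no test. HSP90B1 (0.74), CALR (0.70), CANX (0.55), PDIA6 (0.43) and DNAJB9 (0.22) lay above the range of their reference pairs, and SDF2L1 (−1.34) and PDIA4 (−0.56) below it. HSPA5 (−0.35) and HERPUD1 (−0.27) stayed within ranges that reached down to −0.64 and −1.02. XBP1 (0.1505) was only just within, with an upper limit of 0.1507. Thus 7 of 10 lay outside their ranges, near the 71.6% of all genes that did. SDF2L1 was the only one of the 10 past 2-fold, as were 8.95% of all genes above and 7.11% below. For SDF2L1 the values were 292 FPKM at 14 h, 111 FPKM at 16 h, 95.6 FPKM at 18 h and 236 FPKM at 20 h. For CALR they were 618, 919, 864 and 489 FPKM.

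The deviation moved with GC content, taken for each gene as the median over all its annotated transcripts, short ones included. Over 12148 genes the Spearman rho between deviation and GC content was −0.573, a description across genes that share the same libraries. SDF2L1 had the highest GC content of the 10 at 66.2%, against a median of 49.1% over all genes, and HSP90B1 at 42.4% stood above only DNAJB9, at 40.4%. After a smooth trend with GC content was removed, SDF2L1 was at −0.50, HSP90B1 at 0.26 and CANX at 0.25. PDIA6 was at 0.10 in place of 0.43, and DNAJB9 changed sign, from 0.22 to −0.33. CALR, with a GC content of 55.3%, was at 0.85, HSPA5 at −0.68, PDIA4 at −0.51 and HERPUD1 at −0.48. CALR, HSPA5, HERPUD1 and DNAJB9 were further from 0 than before. The median of the 10 genes was 0.19 as measured, −0.04 after upper-quartile scaling and −0.17 after the GC trend was removed. Over all genes these medians were 0.14, −0.06 and −0.0024. Of the other lists, the cytosolic chaperones (median 0.71, 4 of 12 at least 2-fold above and 1 below) and the sensors and regulators (median 0.71, 2 of 11 above) deviated upwards most, followed by the ERAD genes (0.36, 1 above), the translocon genes (0.20, 2 above and 2 below) and the other chaperones (0.13, 3 above and 1 below). The PERK and ATF4 genes had a median of −0.37, with 2 of 7 at least 2-fold below the line. HSPA8 was at 3468 FPKM at 16 h and 3777 FPKM at 18 h, between 1759 FPKM at 14 h and 1650.0 FPKM at 20 h.

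**Figure D4:**
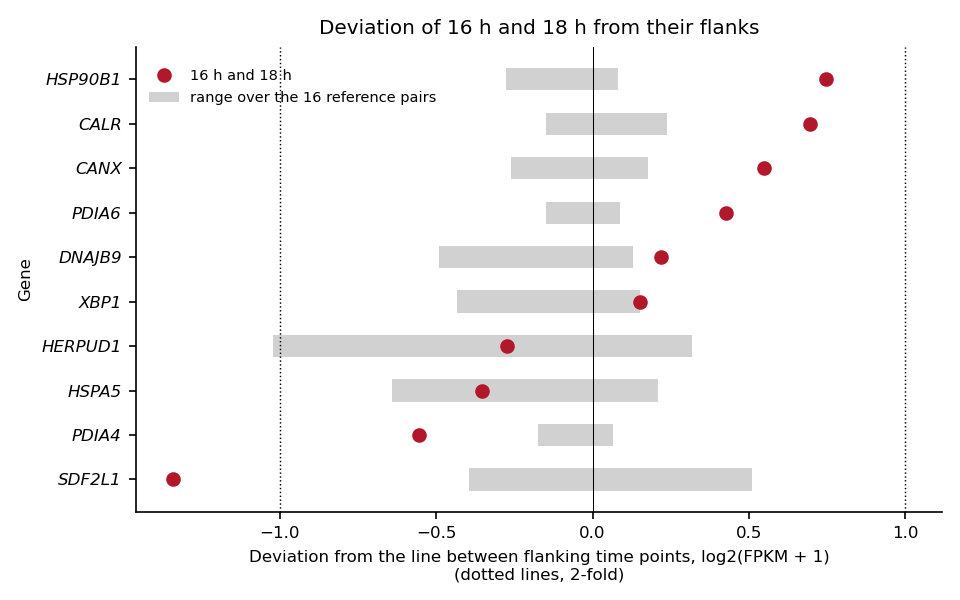
Mean deviation of 16 h and 18 h from the line between 14 h and 20 h in log2(FPKM + 1) (red points) for each of the 10 genes, with the range of the same measure at 16 other pairs of time points (grey bars) and 2-fold marked by dotted lines. SDF2L1, at −1.34, is the one gene past 2-fold, while HSP90B1, CALR, CANX and PDIA6 lie above their bars and PDIA4 below.

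The 10 genes did not vary as 1 group. Over the 45 pairs the Spearman rho across the 24 time points had a median of 0.191 and ran from −0.364 (SDF2L1 and CANX) to 0.772 (HSPA5 and PDIA4). Without 16 h and 18 h the median was 0.354. All points share libraries and successive hours, so these values are descriptions. HSPA5, PDIA4 and SDF2L1 varied together: HSPA5 and SDF2L1 had a rho of 0.762, and PDIA4 and SDF2L1 of 0.671. Without 16 h and 18 h these were 0.702 and 0.573, and HSPA5 and PDIA4 were at 0.713. CALR, CANX and PDIA6 were alike too, with rho of 0.679 for CALR and CANX, 0.665 for PDIA6 and CANX and 0.650 for PDIA6 and CALR. Without 16 h and 18 h, where these genes were highest, the values were 0.584, 0.566 and 0.545. XBP1 was most like HERPUD1 (0.668, and 0.817 without 16 h and 18 h) and DNAJB9 (0.650, and 0.587 without these hours). HSPA5 and HSP90B1 had a rho of 0.328, and 0.652 without 16 h and 18 h.

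Among 7168 other genes that averaged at least 10 FPKM, PDIA4 had the highest rho with HSPA5 and SDF2L1 the third highest. Without 16 h and 18 h they ranked 3 and 5 among these 7168 genes. The 10 most similar genes outside the set were POLG (0.771), IMPDH1 (0.741), PLOD1 (0.737), RNPEPL1 (0.730), KDM2B (0.722), HNRNPL (0.718), BCAT2 (0.717), MKRN2 (0.717), SYNGR3 (0.713) and VCP (0.695), over the 24 time points. VCP encodes the ATPase that pulls ERAD substrates from the membrane and PLOD1 a lysyl hydroxylase of the endoplasmic reticulum. Without 16 h and 18 h the order outside the set changed: CNBP (0.784) and DNTTIP2 (0.759) came first and POLG (0.712) ranked 3. PLOD1 and VCP then ranked 12 and 23 outside the set. The mean Z-score of the 10 genes was most similar to SNRPA (0.822), DNTTIP2 (0.810), WDR12 (0.806), ASCC3 (0.805) and CUL1 (0.792) over the 24 time points. This order changed too without 16 h and 18 h. DNTTIP2 then ranked 2, CUL1 6, SNRPA 7, ASCC3 12 and WDR12 13.

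**Figure D5:**
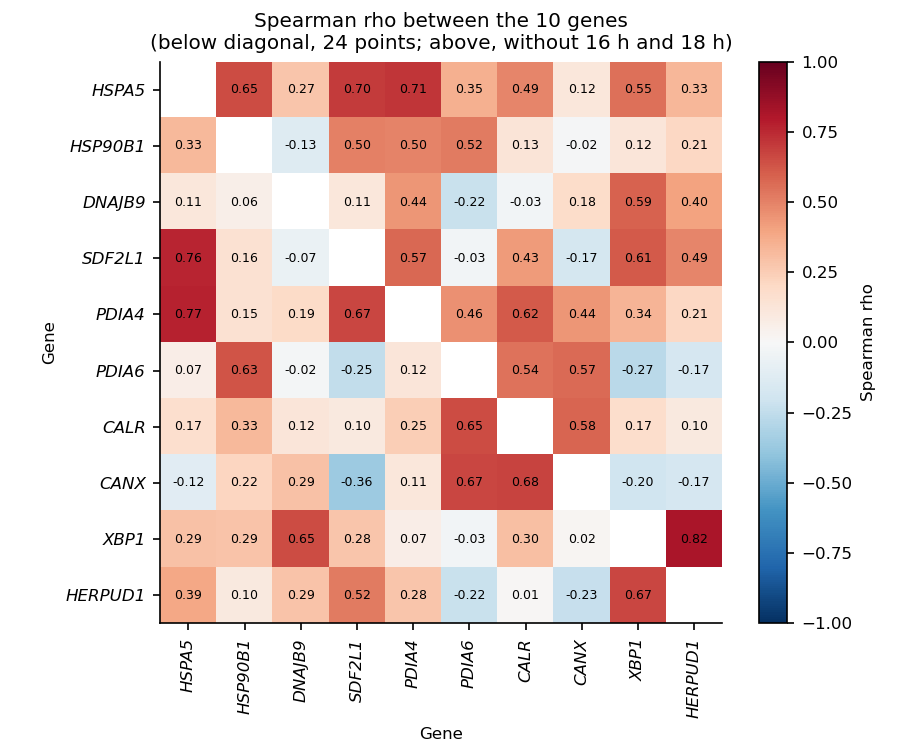
Spearman rho between each pair of the 10 genes (colour and number), over the 24 time points below the diagonal and without 16 h and 18 h above it. HSPA5, SDF2L1 and PDIA4 have high values with each other, at 0.671 to 0.772 over the 24 time points, though HSPA5 stands apart in the order drawn. PDIA6, CALR and CANX form a block, at 0.650 to 0.679.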

How the data were processed

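FPKM values were deposited by the authors for 24 K562 libraries, after alignment with STAR and quantification with Cufflinks and Cuffnorm (build GRCh37 in the submitters' processing notes; versions and annotation are not given in the sources used here). Values were used as deposited. The authors also deposited a cleaned score per gene, a Z-score followed by quantile normalization, used only as an alternative. The number of per-sample columns left out was 0. FPKM are not counts and hold no depth, so count models were not used.

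Time points were taken from the labels. Differences used log2(FPKM + 1), which understates changes of low genes, and JTK the FPKM themselves. Day differences were fitted in limma 3.58.1 (R 4.3.3; trend, hour as a block) over 12253 genes averaging at least 1 FPKM. JTK permutation p-values (two-sided by phase, 12 phases) came from 100000 orderings over 12285 genes. All were Benjamini-Hochberg adjusted and called at 0.05. Both were tested on simulated data. GC content came from GENCODE 29 (12180 genes matched), names from a gene table (12123 matched) and promoters from RefSeq; both annotations are GRCh38, so no coordinates were joined to the FPKM values.

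The 10 genes and all lists were chosen with earlier results of these data known. Named genes were the 10; in each list, up to 3 called genes per direction with the largest day difference; those most like HSPA5 (10) or the mean Z-score (5); and HSPA8, HSPA1A, ATF4 and DDIT3.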

Additional observations from a re-analysis of the deposited data

How the results depend on the processing

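With 1 library per time point, no error of a single value can be given, and depth is unknown. Of the 10 genes, JTK called 0 as reported (1602 genes in all) and 2 with a period of 20 h (HSP90B1 and CALR, 270 in all). It called 2 without 16 h and 18 h (1993 in all) and 2 with PCHIP interpolation of these hours (2264). It called 1, CALR, both in the cleaned table (1551) and with a straight line removed (1656). A period of 28 h called 437 genes in all and 0 of the 10. The cause was not tested. For the day difference, 1 of the 10 (CALR) was lower without 6 h, 16 h, 18 h, 32 h and their partners, against 677 genes in all. Under the other 11 alternatives 0 of the 10 were called. Over all genes, sampling every 4 h left 4 higher and 1 lower calls from 0 h, and 86 and 10 from 2 h, with fewer samples; a mean of at least 10 FPKM left 424 and 349, with fewer genes tested.

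At 16 h and 18 h, a threshold of 1.5-fold put 2 of the 10 above it, against 23.9% of all genes, and removing the GC trend left 0 of the 10 at least 2-fold below the line, against 467 genes in all. The median of the 10 was 0.0735 with median centring, −0.0372 with upper-quartile scaling and −0.166 with the GC trend removed, which reversed its sign in the last 2. The median of all genes was 0.14 as measured, 0.03 after centring, −0.063 with upper-quartile scaling and −0.0024 with the GC trend removed. It too was below 0 in the last 2. Median rho was 0.354 without 16 h and 18 h. Alternatives added after seeing the data gave a median rho of 0.313 without 0 h, 2 h, 16 h and 18 h. Of the 10 genes, 0 were 2-fold lower at 4 h with 2 h in place of 0 h (59 genes in all), 3 with a pseudocount of 0.1, and 5 with a threshold of 1.5-fold (690 in all). HERPUD1's end difference gave a count of 1 without 44 h (80 genes in all) and 0 without 46 h (17 in all). Without hour as a block, the day difference called 1311 genes higher and 809 lower, and 0 of the 10.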
